A study of Mus musculus with 12 samples.

Results

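The 47 genes described here encode nucleolar proteins that transcribe ribosomal RNA or assemble the ribosomal subunits. They were picked by symbol from the 12212 genes of the count tables, and all 47 were listed there and passed the filter on low counts. The cells were germinal center B cells, taken by FACS from spleens of NZBWF1/J mice, a cross of 2 inbred strains used as a model of lupus. Each of the 12 libraries came from 1000 cells, and there were 3 libraries for each zone (dark or light) in each arm (control or treated). Mice of the control arm were untreated. Those of the treated arm were given CTLA4-Ig (6 doses of 200 ug), a fusion protein that blocks CD28 costimulation of T cells, plus anti-CD40L (6 doses of 250 ug), an antibody to the T cell ligand of CD40. Treatment started when mice were 18 weeks old and covered 2 weeks. The labels give no age for control mice, do not name the sort markers, and do not say whether libraries of the same number shared a mouse.

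Ribosome production starts in the nucleolus, where RNA polymerase I copies the ribosomal DNA into a long precursor. Small nucleolar ribonucleoproteins (snoRNPs) guide chemical modification of that precursor, the small subunit processome folds and cuts its 5′ part into the 40S subunit, and another set of factors builds the 60S subunit. In germinal centers, B cells divide in the dark zone and compete for antigen and for help from T cells in the light zone, and cells that win this help induce MYC, a transcription factor known to raise ribosome biogenesis genes.

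Values are normalised read counts (CPM, reads of a gene scaled to the TMM-adjusted library total), and differences are on the log2 scale with a standard error (SE). Library totals were 16032746 to 26837714 counts, at which 3 counts correspond to 0.0776 to 0.206 CPM. These limits cover counting error only, as the libraries carry no molecular identifiers. The libraries with file headers S38 and S39 (dark zone treated, replicates 1 and 2) and S37 (light zone treated, replicate 2) stood apart from the other 9. They had counts for 12188 to 12195 genes, against 11384 to 11960 in the other 9. The 14 germinal center B cell markers summed to 7809 to 8618 CPM in these 3 libraries and to 7958 to 12616 CPM in the other 9. The 13 macrophage markers summed to 101 to 266 CPM against 16.7 to 104, so the sums overlapped. Of these 13, Lyz2 was at 13.7 to 17.9 against 0.103 to 0.523 CPM and C1qa at 8.06 to 21 against 0 to 0.36. They are the only ones given singly here and need not be typical of the list. The 10 measured T cell markers summed to 142 to 313 against 87.2 to 225 CPM, and the 7 measured plasma cell markers to 1449.8 to 2601 against 6619 to 11745. The 7 measured erythroid and neutrophil markers summed to 72 to 263 against 1.6 to 1388 CPM. The part of these other cells and of gene detection in the results below was not tested, so the counts and medians of the 47 genes in each comparison with treated libraries are given with all 12 libraries and with the other 9.

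The 47 genes held 0.518%, 0.587% and 0.736% of the counts in S38, S39 and S37. They held 0.403% to 0.607% in the other 9 libraries, so the ranges overlapped. The mean log2 CPM of the 47 genes was 5.55, 5.93 and 6.15 in the 3 libraries and 4.13 to 5.06 in the other 9. Over all 12081 tested genes it was 3.88, 3.88 and 3.96 against 3.08 to 3.69. In 9 of the 47 genes the 3 libraries all lay above the other 9 (19.1%, against 13.7% of all tested genes), and in 4 they all lay below (8.51% against 16.7%). The 9 were Fbl, Gar1, Rrp9, Ncl, Pes1, Bop1, Nop2, Noc2l and Ftsj3, and the 4 were Nop10, Nhp2, Npm1 and Nip7. No member was below 1 CPM in the 3 libraries, where the lowest value was 6.76 CPM, whereas 14 members did so in at least 1 of the other 9. The latter include Nop2, an rRNA methyltransferase of the 60S subunit, at 28.1 to 55.6 CPM in the 3 libraries and 0.052 to 16.4 in the 9. They also include Bop1, a partner of PES1 in 60S assembly, at 68.5 to 111 against 0.455 to 27.8 CPM. The lowest Nop2 value lies under that of 3 counts. Because these libraries are bulk samples, fewer expressing cells and less RNA per cell cannot be told apart.

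**Figure D1:**
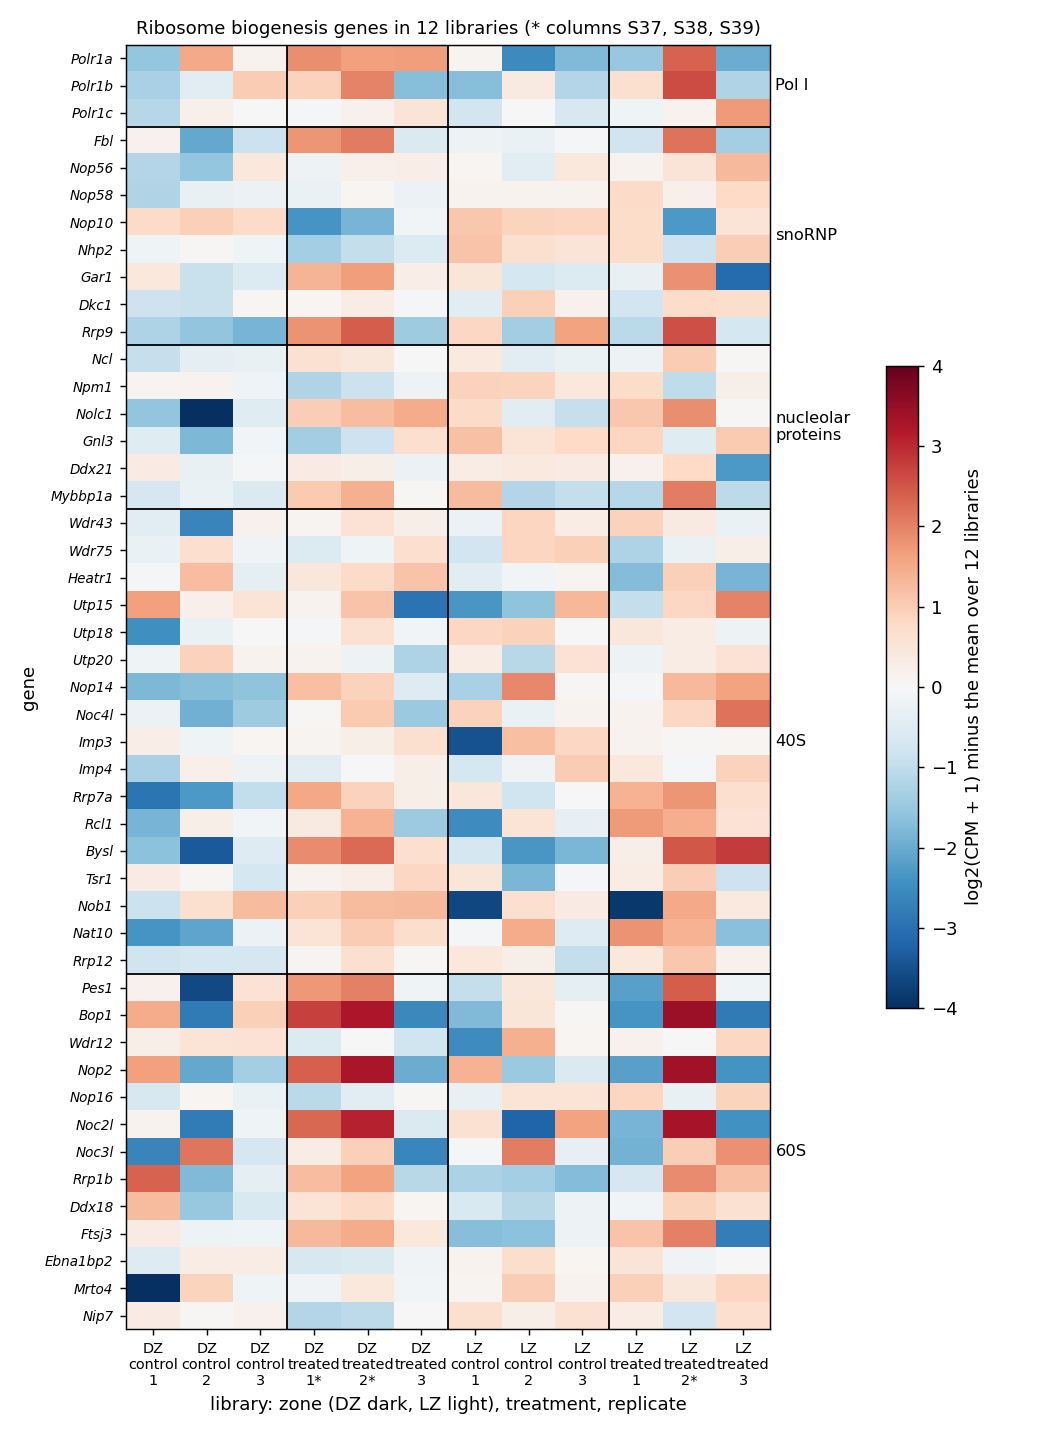
Level of each of the 47 genes in each of the 12 libraries, as log2(CPM + 1) minus the gene's mean over the 12 libraries, with genes in rows by role and libraries in columns by group. Asterisks mark the 3 libraries with headers S37, S38 and S39, in which Fbl, Bop1, Nop2 and Noc2l were high and Nop10 and Npm1 low.

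Members are dispersed over 17 chromosomes, and their upstream sequences were searched for CACGTG, the canonical E-box to which MYC and other factors bind. RefSeq promoter entries (GRCm38.p6, 250 bases before to 50 after the gene start) were found for 43 of the 47 genes and none for Npm1, Fbl, Rrp12 and Bop1. The hexamer, which reads the same on both strands, occurred in 9 of these 43 genes (20.9%) and in 1093 of the 9389 genes of the files with an entry (11.6%). In 4 of the 9, namely Imp4, Nop2, Utp18 and Rrp7a, it lies upstream of the start. In Mybbp1a, Pes1, Tsr1, Utp20 and Wdr43 it lies after the start. A match describes the letters only and is not shown to be a bound site. The 250 upstream bases of 3 of them are shown with CACGTG in capitals, since Rrp7a had the smallest p of the members, Nop2 was among those highest in the libraries that stood apart, and Utp18 holds the hexamer nearest to the start among the 4 upstream matches.
Rrp7a, chr15:83122802-83123051, strand -: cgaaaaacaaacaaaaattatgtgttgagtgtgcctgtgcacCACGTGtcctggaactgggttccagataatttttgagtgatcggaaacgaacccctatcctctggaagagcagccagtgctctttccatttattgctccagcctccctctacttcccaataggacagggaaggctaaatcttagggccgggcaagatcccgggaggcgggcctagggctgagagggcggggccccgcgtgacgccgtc
Nop2, chr6:125131633-125131882, strand +: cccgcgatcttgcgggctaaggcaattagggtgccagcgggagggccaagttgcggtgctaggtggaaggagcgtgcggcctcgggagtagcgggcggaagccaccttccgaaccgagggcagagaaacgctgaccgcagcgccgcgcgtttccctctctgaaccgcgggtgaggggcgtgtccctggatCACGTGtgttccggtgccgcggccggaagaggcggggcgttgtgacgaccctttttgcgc
Utp18, chr11:93885767-93886016, strand -: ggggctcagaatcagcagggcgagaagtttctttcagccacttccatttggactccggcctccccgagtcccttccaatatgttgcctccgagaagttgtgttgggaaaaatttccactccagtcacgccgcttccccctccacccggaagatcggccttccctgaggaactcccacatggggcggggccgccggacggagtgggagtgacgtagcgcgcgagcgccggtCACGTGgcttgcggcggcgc

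Dark zone cells of treated and control mice were compared to describe how the machinery differed under blockade of T cell help. Of the 47 genes, 35 had a higher value in treated libraries (against 52.2% of all 12081 genes), with a median log2 difference of 0.60 against 0.06 over all genes. Without dark zone control replicate 3 the median of the members was 1.01, the highest of the values without single libraries. The median over all genes in that fit is not given here. By edgeR's quasi-likelihood test 0 of the 47 passed the Benjamini-Hochberg threshold of 0.05 (0% of all genes did), and the smallest adjusted p was 0.528. At an unadjusted p under 0.05 there were 6 members higher and 1 lower, where 588 and 487 of all genes, 4.87% and 4.03%, were. In 10 genes all treated libraries lay above all controls and in 5 all lay below, where 12.5% and 11.2% of all genes did so.

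Of the genes for 40S production, 14 of 17 were higher, with a median of 0.78. Rrp7a, a factor of the small subunit processome, was at 2.19, 3.95 and 11.3 CPM in replicates 1, 2 and 3 of the dark zone control arm and at 70.2, 45.4 and 27.8 CPM in those of the treated arm. All treated libraries exceeded all controls, by 3.03 (SE 0.72), the smallest unadjusted p of the members (0.00156 by edgeR). DESeq2 called it at an adjusted p of 0.00324, the only member it called of 72 genes in all (0.616% of the genes it tested). The transcript of Rrp7a shares 678 bases with Serhl, and reads from those bases cannot be told apart. Serhl was at 8.92 to 14.9 CPM in the 3 libraries that stood apart and 1.08 to 36.7 in the others.

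Bysl, which encodes bystin, a protein that late 40S precursors carry, was at 2.4, 0.051 and 6.52 CPM in controls and 38.9, 50.2 and 16.1 in treated libraries, a difference of 3.55 (SE 1.33). Nop14, a processome subunit, was at 5.41, 5.92 and 6.26 and 50.4, 41.1 and 14.6 CPM, a difference of 2.59 (SE 0.86). In both genes the treated libraries did not overlap the controls, and treated replicate 3 was the lowest of the treated. Control replicate 2 of Bysl lies under the value of 3 counts. Bysl shares 361 bases of its transcript with Ccnd3, which encodes cyclin D3. Ccnd3 was at 65.8, 9.26 and 112 CPM in dark zone controls and at 437, 355 and 162 in dark zone treated libraries, so it was also higher in each treated library. Its part in the Bysl values was not tested. The large scaffold proteins of the processome showed no such separation. Heatr1 was at 15.5, 39.9 and 12.6 CPM in controls and 22.9, 28.7 and 37.5 in treated libraries. Utp20 was at 14.9, 33.2 and 19 and 19.1, 14.8 and 6.69 CPM, with overlapping groups.

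Among the abundant nucleolar proteins, Nolc1, a chaperone that links snoRNPs to the nucleolus, was at 10.3, 1.11 and 23.2 CPM in controls and 66.1, 78.4 and 94.5 in treated libraries. The groups did not overlap and differed by 2.79 (SE 0.93), with treated replicate 3 the highest. Ncl (nucleolin), which binds the rRNA precursor, was at 281, 409 and 431 and 823, 728 and 531 CPM, again without overlap. Npm1 (nucleophosmin), a histone and ribosome chaperone, went the other way at 749, 758 and 610.3 and 297, 383 and 595 CPM. All treated libraries of Npm1 lay below the controls, replicate 3 by little. Processed copies of the Npm1 transcript are scattered in the mouse genome, and how reads shared with them were counted is not stated, which leaves its level uncertain.

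In the box H/ACA snoRNP, which converts uridine to pseudouridine, transcripts of the core proteins Nop10 and Nhp2 were lower in treated dark zone libraries. Nop10 was at 1481, 1699.9 and 1471 CPM in controls and 171, 239 and 801 in treated libraries, a difference of -1.94 (SE 0.73). Nhp2 was at 387, 449.8 and 388 and 171, 226 and 302 CPM. Neither gene's groups overlapped. Of their partners, Dkc1 (dyskerin, the pseudouridine synthase) was at 44.1, 42.6 and 83.7 and 83.7, 98.4 and 74.4 CPM and Gar1 at 17.1, 6.38 and 8.17 and 33.8, 42.4 and 15.1 CPM. In the box C/D snoRNP, which methylates ribose, Fbl (fibrillarin, the methyltransferase) was at 56, 11.2 and 27.1 and 172, 211 and 33.1 CPM. Its treated replicate 3 lay within the control range, whereas replicates 1 and 2 lay above it. Nop56, a core protein of the same particle, was at 58.3, 44.5 and 177 and 115, 150.4 and 158 CPM, with overlap. Rrp9, which binds the U3 snoRNA, had the highest difference of all members at 3.89 (SE 1.49), from 1.85, 1.27 and 0.849 CPM in controls and 22.3, 35.3 and 1.52 in treated libraries. Replicate 3 of Rrp9 was again within the control range.

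For RNA polymerase I, Polr1a, its largest subunit, was at 1.44, 19.7 and 7.0 CPM in controls and 25.3, 21.5 and 22 in treated dark zone libraries. The groups did not overlap, but control replicate 2 came close to the treated ones. Polr1b, the second largest subunit, was at 0.685, 2.02 and 7.43 and 6.76, 15.3 and 0.28 CPM, with treated replicate 3 the lowest of the 6. The 60S factors were split, 7 of 13 higher and 6 lower, with a median of 0.20. Pes1 (pescadillo) was at 17.8, 0.354 and 23.8 and 54.1, 66.4 and 13.7 CPM and Bop1 at 27.8, 0.455 and 19.1 and 68.5, 96.4 and 0.721 CPM. Both were high in treated replicates 1 and 2 only, and in replicate 3 Bop1 was near its lowest control. Wdr12, the third protein of the PES1 complex, was lower without overlap, at 51.1, 63.8 and 66.1 and 29.7, 43.3 and 24.8 CPM (log2 difference -0.89, SE 0.75).

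**Figure D2:**
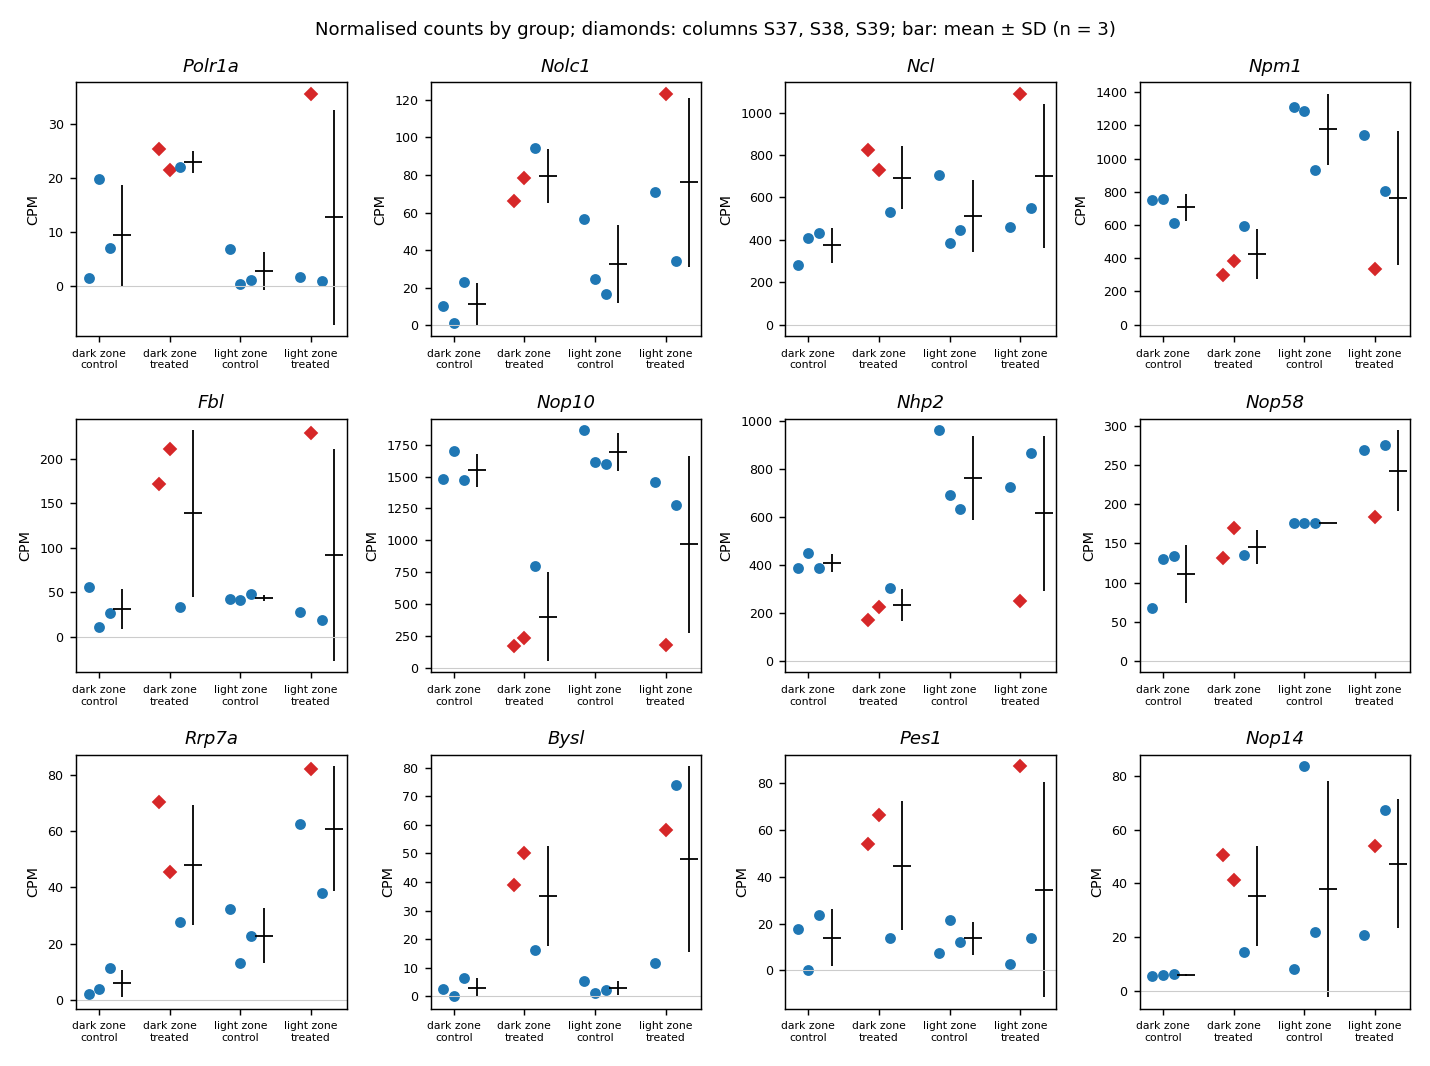
Normalised counts (CPM, linear axes) of 12 members in each library, by group, with the mean ± SD of each group of 3 beside the points. Diamonds mark the libraries with headers S37, S38 and S39, which lie apart from the circles of their group in Fbl, Pes1, Nop10 and Npm1. In the light zone treated group the diamond is also the lowest point in Nop58 and the highest in Nolc1 and Rrp7a. In the dark zone treated group the circle lies between the diamonds in Nop58, below both in Rrp7a and above both in Nolc1.

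Without the 3 libraries that stood apart, 1 dark zone treated library remained, and the values rest on it and on a spread taken from the other groups. There 28 of 47 members were higher (45.3% of all genes were), with a median of 0.32 against -0.11 over all genes. At an unadjusted p under 0.05 there were 2 members higher and 1 lower (1.59% and 2.39% of all genes). The remaining library lay above all controls in 19 members and below all in 8 (26.8% and 23.8% of all genes). Nolc1 differed by 3.06 (SE 1.29), Rrp7a by 2.27 (SE 0.94), Bysl by 2.45 (SE 1.84) and Nop14 by 1.33 (SE 1.18). In 11 members the sign changed (31.0% of all genes). Among them Bop1 went from 1.81 to -4.42, Nop2 from 2.16 to -3.87 and Polr1b from 1.14 to -3.54. The 40S genes had a median of 0.74 (13 of 17 higher), whereas 10 of 13 60S genes were lower, with a median of -0.20. Rrp9 differed by 0.22 (SE 1.26) and Fbl by 0.09 (SE 0.86). EdgeR called 0 genes there (0% of 12017). DESeq2 called 217 genes (1.87%), of which 1 was a member, Nop10, with a log2 difference of -0.96 at an adjusted p of 0.000612.

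**Figure D3:**
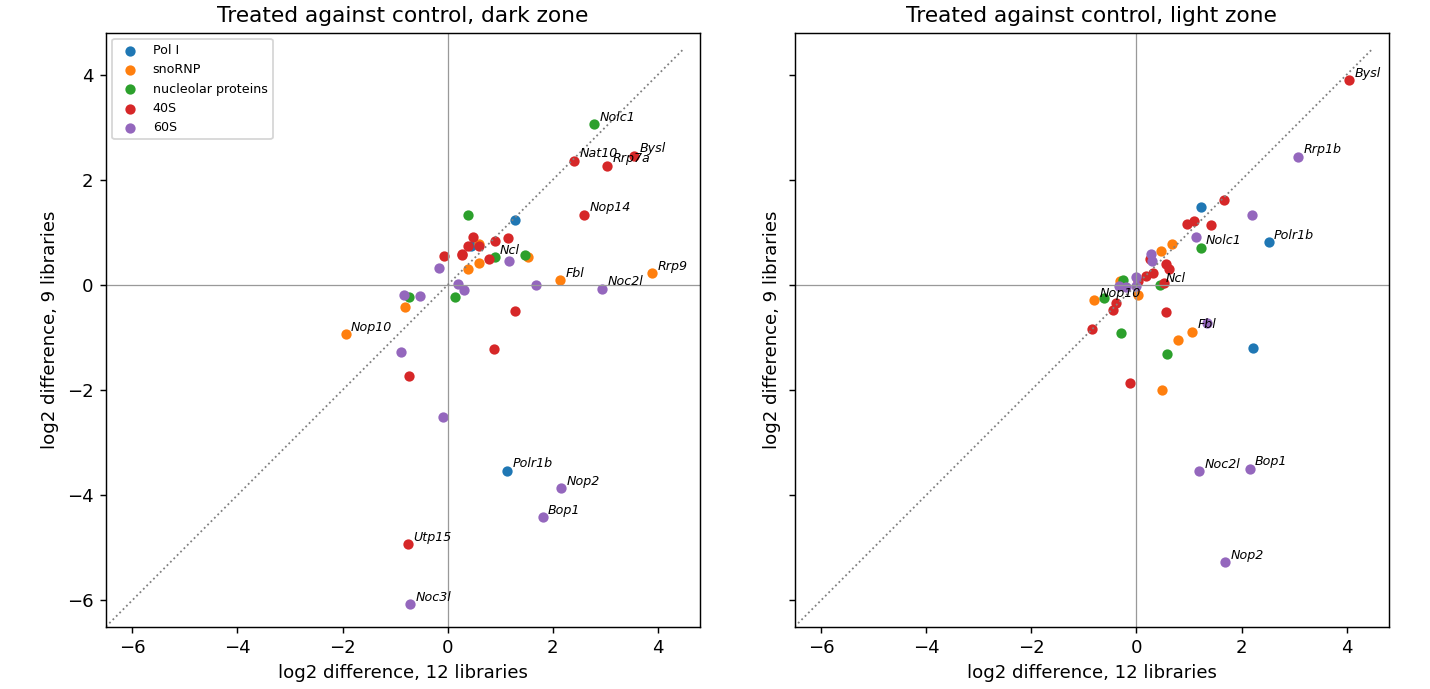
Log2 difference between treated and control libraries of each member, with all 12 libraries on the horizontal axis and with the 9 libraries on the vertical axis, for dark and light zone, coloured by role. Points on the diagonal are equal in both, as nearly so for Nolc1 in the dark zone (2.79 and 3.06) and Bysl in the light zone (4.05 and 3.89), while Bop1 in the light zone lies far below it (2.16 and -3.5).

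In light zone cells the same comparison gave 34 of 47 members higher in treated libraries (54.1% of all genes were), with a median of 0.52 against 0.10. EdgeR called 0 members and 0% of all genes (smallest adjusted p of a member 0.674). At an unadjusted p under 0.05 there were 2 members higher and 0 lower (5.83% and 1.53% of all genes). The groups did not overlap in 6 members that were higher and 1 that was lower (5.82% and 5.49% of all genes). DESeq2 called 216 genes (1.85%) and 1 member, Bysl (adjusted p = 0.0265). Without light zone treated replicate 2 the median of the members was 0.07.

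Bysl was at 5.49, 1.15 and 2.04 CPM in light zone control and 11.5, 58.3 and 74.1 in light zone treated replicates 1, 2 and 3. All treated libraries were above all controls, by 4.05 (SE 1.36), and by 3.89 (SE 1.67) in the 9 libraries. Ccnd3, with which it shares bases, was at 28.2, 37 and 84.9 CPM in these controls and at 29.4, 307 and 79.1 in treated libraries, so in replicates 1 and 3 it stayed within the control range. Rrp1b, a nucleolar protein of the RRP1 family, was at 2.29, 2.12 and 1.39 and 4.04, 28.3 and 16.9 CPM, a difference of 3.08 (SE 1.29) without overlap. Ftsj3, an rRNA methyltransferase that takes part in precursor processing, was at 5.56, 5.8 and 17.6 and 45.6, 84.8 and 2.17 CPM (log2 difference 2.19, SE 1.0). Its groups overlapped, since treated replicate 3 was the lowest of the 6. Rrp7a was at 32.4, 13.1 and 22.8 and 62.4, 82.1 and 37.8 CPM, and each treated library exceeded each control. Serhl, with which Rrp7a shares bases, was at 4.45, 4.13 and 1.62 CPM in these controls and 21.5, 8.92 and 1.08 in treated libraries. Serhl was thus above all controls in treated replicates 1 and 2 and below them in replicate 3. Its part in the Rrp7a values was not tested.

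Nop58, the box C/D core protein, was at 177, 176 and 176 CPM in light zone controls and 269.6, 183 and 276 in treated libraries. The controls were nearly equal and every treated library exceeded them, replicate 2 by the least. Fbl was at 42.9, 41.2 and 47.8 and 28.1, 229 and 18.7 CPM, so that replicate 2 was above and the other 2 treated libraries below all controls. Nop10 was at 1863, 1613 and 1597 and 1455, 178 and 1277 CPM (log2 difference -0.80, SE 0.71), the single member lower without overlap. Nolc1 was at 56.4, 24.6 and 17 and 71.1, 123 and 34 CPM, with overlap. Ncl was at 706, 387 and 444 and 461, 1089 and 553 CPM and Npm1 at 1312, 1288 and 931 and 1145, 337 and 806 CPM, both with overlap. Wdr75, a processome subunit needed for transcription of the precursor, had the lowest difference at -0.85 (SE 0.62), from 17.9, 56.9 and 60.3 and 12.7, 25.4 and 37.1 CPM.

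In several members treated replicate 2 was far above the other libraries. Polr1a was at 6.8, 0.23 and 1.11 CPM in controls and 1.52, 35.6 and 0.826 in treated libraries, and Polr1b at 0.262, 4.25 and 0.834 and 5.38, 24.4 and 0.774. Pes1 was at 7.52, 21.5 and 12 and 2.63, 87.2 and 13.8 CPM, and Bop1 at 2.03, 13.5 and 9.64 and 0.994, 111 and 0.465. Replicate 2 was the highest of the 6 libraries in each of these 4 genes. With all libraries their log2 differences were 2.22, 2.52, 1.34 and 2.16, and in the 9 libraries -1.19, 0.81, -0.73 and -3.5. In the 9 libraries 25 of 47 members were higher (48.0% of all genes), with a median of 0.08 against -0.04. The sign changed in 15 members (22% of all genes), among them Fbl (1.06 to -0.90), Rrp9 (0.49 to -2.0), Nop2 (1.69 to -5.28) and Noc2l, a 60S assembly factor (1.2 to -3.55). At an unadjusted p under 0.05 there were 0 members higher and 1 lower, Heatr1 (3.58% and 3.82% of all genes). The groups did not overlap in 7 members higher and 6 lower (11.3% and 11.5% of all genes). The 6 were Fbl, Nop10, Ddx21, Heatr1, Bop1 and Nop2. Ddx21, an RNA helicase that binds the precursor, was at 74.9, 79.2 and 75.2 and 68.4, 106 and 11.6 CPM. EdgeR called 0 genes in the 9 libraries, and DESeq2 called 432 (3.72%), 0 of them members.

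The difference between the treatment effects of the zones was tested directly, and 0 of the 47 genes passed by edgeR or DESeq2. Of all genes 0% passed by edgeR and 0.137% by DESeq2. At an unadjusted p under 0.05 there were 0 members, against 1.47% of all genes higher and 0.811% lower. The difference (light minus dark) was above 0 in 23 of 47 members and in 55.5% of all genes, with medians of -0.00 and 0.15. In the 9 libraries it was above 0 in 20 of 47 members and 54.0% of all genes, with medians of -0.53 and 0.10. There 1 member, Nop10, was higher and 1, Heatr1, lower at an unadjusted p under 0.05 (2.13% and 2.50% of all genes).

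The zones were then compared within the control arm, which holds none of the libraries that stood apart, although all 12 set the spread. Of the members 31 of 47 were higher in the light zone (50.1% of all genes), with a median of 0.39 against 0.00. EdgeR called 0 members and 0% of genes. At an unadjusted p under 0.05 there were 3 members higher and 1 lower (1.90% and 3.02% of all genes). Light zone libraries lay wholly above in 6 members and wholly below in 1 (4.47% and 5.60% of all genes). DESeq2 called 113 genes (0.966%), 0 of them members, and with the spread taken from the 9 libraries 116 (0.999%), of which 1 was a member, Nhp2 (adjusted p = 0.00686). By edgeR with that spread, 31 of 47 members were higher (51.3% of all genes) and 7 higher and 0 lower had an unadjusted p under 0.05 (2.16% and 2.79% of all genes). With the scaling of the 9 libraries 7 members lay wholly above and 0 wholly below (4.68% and 5.33% of all genes).

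All 8 snoRNP genes and all 6 abundant nucleolar proteins were higher in the light zone (medians 0.62 and 0.71), 11 of 17 40S genes were (median 0.41), and 6 of 13 60S genes were (median -0.03). All 3 polymerase I genes had lower values. EdgeR called none of these, and differences between roles were not tested. Nhp2 was at 387, 449.8 and 388 CPM in dark zone and 962, 692 and 633 in light zone controls, a difference of 0.90 (SE 0.43). Npm1 was at 749, 758 and 610.3 and 1312, 1288 and 931 CPM, and Gnl3 (nucleostemin, a nucleolar GTPase) at 49.1, 19.2 and 63.7 and 157, 102 and 121 CPM (log2 difference 1.53, SE 0.65). In these 3 genes every light zone library exceeded every dark zone library. Nop58 did so too, at 68, 129 and 134 and 177, 176 and 176 CPM. Nop14 was at 5.41, 5.92 and 6.26 and 8.11, 83.4 and 21.9 CPM (log2 difference 2.69, SE 0.86), and Rrp7a at 2.19, 3.95 and 11.3 and 32.4, 13.1 and 22.8 CPM (log2 difference 1.97, SE 0.69). The Nop14 values of the light zone were widely spread and those of the dark zone close together.

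Rrp9 had the highest zone difference, 3.0 (SE 1.43), from 1.85, 1.27 and 0.849 CPM in dark zone and 10.9, 1.55 and 19.4 in light zone controls, with overlap at light zone replicate 2. Ncl was at 281, 409 and 431 and 706, 387 and 444 CPM and Nolc1 at 10.3, 1.11 and 23.2 and 56.4, 24.6 and 17 CPM, both with overlap. Utp18, a processome subunit, was at 5.83, 30.1 and 36.4 and 65.7, 70.1 and 35.9 CPM, also with overlap, which went away with the scaling of the 9 libraries. Rrp1b and Polr1a lay at the other end. Rrp1b was at 40.03, 1.37 and 5.14 and 2.29, 2.12 and 1.39 CPM (log2 difference -3.0, SE 1.28), where dark zone replicate 1 alone was far from the rest. Polr1a was at 1.44, 19.7 and 7.0 and 6.8, 0.23 and 1.11 CPM (log2 difference -1.79, SE 1.54). Ftsj3, the single member wholly lower in the light zone, was at 26, 17.6 and 17.9 and 5.56, 5.8 and 17.6 CPM. Light zone replicate 3 all but equalled dark zone replicate 2, and with the scaling of the 9 libraries the groups overlapped.

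Under treatment the same zone comparison gave 30 of 47 members higher in the light zone (52.6% of all genes), with a median of 0.33 against 0.05. EdgeR called 0 members and 0% of genes, with 3 members higher and 0 lower at an unadjusted p under 0.05 (1.46% and 0.604% of all genes). The groups did not overlap in 3 members, Nop58, Wdr12 and Mrto4, all higher, and in 0 lower (2.24% and 3.55% of all genes). DESeq2 called 1 gene (0.00855%), not a member. Nop58 was at 131, 169.9 and 134 CPM in dark zone and 269.6, 183 and 276 in light zone treated libraries, a difference of 0.74 (SE 0.33). Nop58 was thus wholly higher in the light zone in both arms. Nhp2, at 171, 226 and 302 and 726, 249 and 868 CPM, had the smallest unadjusted p (0.00858 by edgeR) and the highest difference, 1.4 (SE 0.44). Light zone replicate 2 of Nhp2 lay within the dark zone range. Nop10 differed by 1.26 (SE 0.71) and Nop16, a 60S factor, by 1.0 (SE 0.43). Nop16 was at 71.9, 113 and 158 and 277, 123 and 283 CPM, with light zone replicate 2 low.

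The lowest differences were those of Heatr1, -1.11 (SE 0.86), at 22.9, 28.7 and 37.5 and 4.27, 33.2 and 3.82 CPM, and of Polr1a, -0.86 (SE 1.5), at 25.3, 21.5 and 22 and 1.52, 35.6 and 0.826 CPM. In both genes light zone replicates 1 and 3 lay below every dark zone library and replicate 2 did not. In the 9 libraries, with 1 dark zone treated library left, 31 of 47 members were higher (54.0% of all genes), with a median of 0.31 against 0.09. EdgeR called 0 genes there, with 3 members higher and 1 lower at an unadjusted p under 0.05 (2.35% and 3.63% of all genes). The groups did not overlap in 22 members higher and 12 lower (31.0% and 32.7% of all genes). Heatr1 then differed by -3.19 (SE 0.89) and Polr1a by -4.21 (SE 2.0), and 3 members changed sign (22.1% of all genes). DESeq2 called 365 (3.27%), of which 3 were members, namely Nhp2 (adjusted p = 0.00144) and Nop10 (0.0102), higher, and Heatr1 (0.0137), lower. Of 12 libraries, leaving out light zone treated replicate 2 alone brought the median to 0.02, and leaving out dark zone treated replicate 3 brought it to 0.07.

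**Figure D4:**
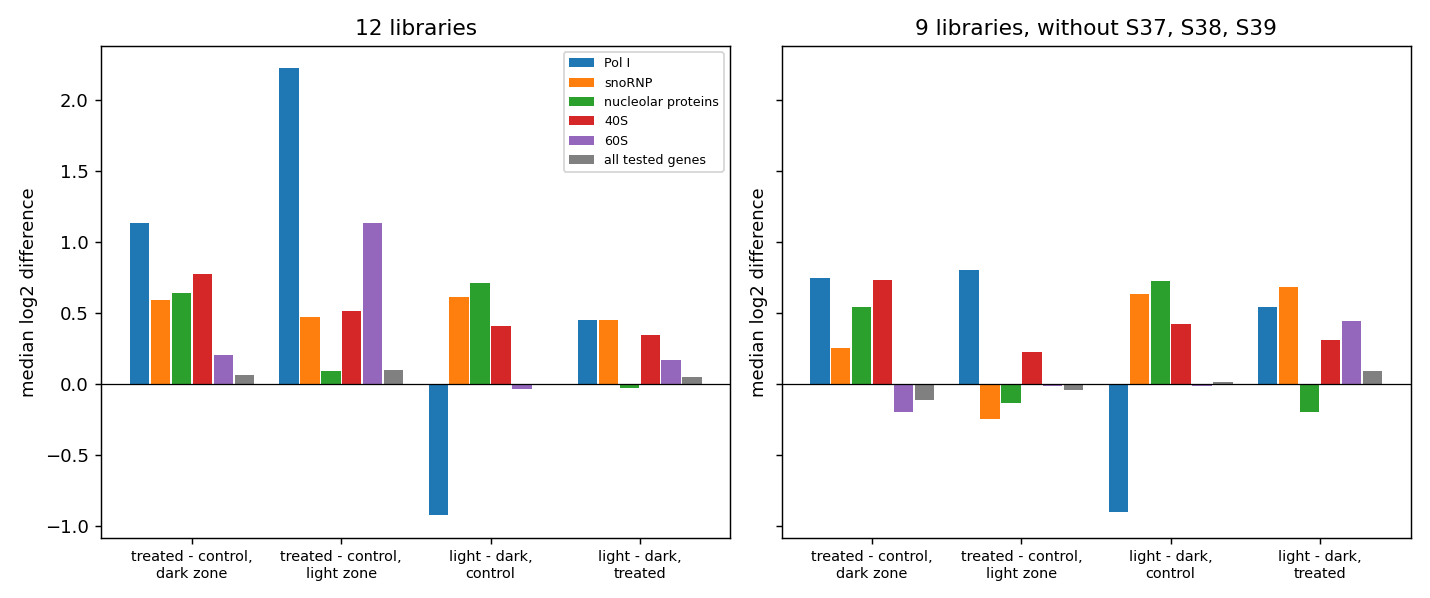
Median log2 difference of the members of each role and of all tested genes (grey) in the 4 comparisons, with 12 libraries (left) and 9 libraries (right). The polymerase I and 60S bars of the light zone treatment comparison shrink without the 3 libraries, and its snoRNP bar goes from 0.47 to -0.24. The control zone comparison holds none of the 3 libraries, so its bars rest on the same libraries in both panels and could change little. Its snoRNP and nucleolar protein bars are at 0.62 and 0.71 on the left and 0.64 and 0.73 on the right.

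Other genes of the pathway were counted as well, and edgeR called 0 of them in any comparison. Over the 5 comparisons DESeq2 made 3 calls among them with 12 libraries. In treated light zone libraries 1 60S and 1 snoRNP assembly gene were higher, where it called 1.85% of all genes. Between control zones 1 snoRNP assembly gene was lower, where it called 0.966% of all genes. With 9 libraries DESeq2 made more calls among these lists, both higher and lower, as it did among all genes. Only 1 dark zone treated library was left there, so the number of these calls is not given. Of 37 measured small subunit genes outside the members, 23 were higher in treated dark zone libraries (median 0.42), and 17 in the 9 libraries (-0.12). Of 43 other 60S genes 25 were higher (median 0.25), and 18 in the 9 libraries (-0.21). Of 12 other polymerase I genes 5 were higher (median -0.04), and 7 in the 9 libraries (0.05). Of 9 other snoRNP assembly genes 2 were higher (median -0.50), and 4 in the 9 libraries (-0.18). In the light zone the treatment medians of these 4 lists were 0.25, 0.25, -0.07 and -0.08 with 12 libraries. With 9 libraries they were 0.07, 0.12, 0.03 and 0.44, so that the last pair changed sign. Between zones of control mice, 29 of the 37 other small subunit genes were higher in the light zone (median 0.21), where 50.1% of all genes were. The remaining lists are not given for that comparison, and the small subunit list need not be typical of them.

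The ribosomal proteins themselves, which are the building blocks rather than the assembly factors, had mostly lower values in treated libraries. Of 83 measured cytosolic ribosomal protein genes, 73 were lower in treated dark zone libraries (median -0.64) and 74 in treated light zone libraries (-0.52), where 47.8% and 45.9% of all genes were lower. In the 9 libraries 76 were lower in each zone (medians -0.41 and -0.27), against 54.4% and 51.6% of all genes. EdgeR and DESeq2 called 0 of them. In the dark zone with all libraries edgeR gave 34 lower and 2 higher at an unadjusted p under 0.05 (4.03% and 4.87% of all genes), and with 9 libraries 15 lower and 0 higher (2.39% and 1.59%). Among the members, 12 were lower and 35 higher in treated dark zone libraries. The 5 wholly lower ones (11.2% of all genes were) were Nop10, Nhp2, Npm1, Wdr12 and Nip7. Their log2 differences in the 9 libraries were -0.94, -0.42, -0.23, -1.27 and -0.20. Nip7, a 60S factor, was at 309, 254 and 282 CPM in dark zone control and 109, 119.7 and 243 in dark zone treated libraries.

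The 4 members below all other libraries in S37, S38 and S39, singled out after their values were seen, have coding sequences shorter than the median member. Nop10 has 192 coding bases, Nhp2 459, Nip7 540 and Npm1 876, against a median of 1656 over the members and a range of 192 to 8367 (GENCODE M21). Short length was not particular to them. Of the members above all other libraries in S37, S38 and S39, Gar1 (693), Fbl (981) and Rrp9 (1425) are shorter than the median and the rest longer. Nop16 (534) and Imp3 (552) are short and overlapped. Across the 47 genes the dark zone treatment difference had a Spearman correlation of 0.301 with coding length, and the light zone difference one of 0.259. Over 11263 genes with a length these were 0.189 and 0.139. In the 9 libraries they were 0.097 and -0.143 for the members and 0.005 and 0.012 for all genes. For the zone differences in controls and under treatment, members had -0.174 and -0.404 with 12 libraries, against -0.045 and -0.175 for all genes. With 9 libraries these were -0.174 and -0.257 against -0.046 and -0.029. These correlations are across genes of the same libraries, which are not independent replicates, and length as a source of the differences was not tested.

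Of the 47 genes 7 (14.9%) hold annotated snoRNA genes within their bounds, on their own strand, 21 in all, namely Nop56, Nop58, Dkc1, Ncl, Gnl3, Wdr43 and Tsr1, against 1.78% of the 11269 protein-coding genes of the files that were placed by symbol. Nop56 (chr2:130274430-130279313, mm10) holds 5 of them, and Nop58 (chr1:59684971-59719044) holds 4. Ncl (chr1:86344719-86359400) and Gnl3 (chr14:31012433-31019152) hold 3 each. Of the 21, 10 touch an annotated exon of the host. Most mouse snoRNAs are processed from introns of such hosts and guide modification of ribosomal RNA. The snoRNAs themselves were not analysed here. In 12 members the transcript shares bases with another protein-coding gene, the most in Tsr1 (1159 bases, with Srr) and Rrp7a, and the kits do not keep the strand, so that such reads can come from either gene.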

How the data were processed

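Per the labels, cDNA from 1000 sorted cells per library was made with the SMART-Seq v4 kit and turned into libraries with Nextera XT, neither of which keeps strand. The submitters' processing notes name BWA and mm10. Not given in the sources used here: version, counting program, annotation, gene filter. In the deposited tables each gene symbol has 1 expected count (estimated count), not scaled to a common total. Values midway between whole numbers were rounded up (4 members had any) and blank cells were read as 0 (1 of 564 member values). How midway values arose is not known.

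The test was edgeR's robust quasi-likelihood test (edgeR 4.0.16, R 4.3.3) after TMM scaling and filterByExpr (minimum count 10, minimum total 15), which kept 12081 genes, in 1 fit of all 12 libraries with a term per group. P-values are two-sided and adjusted by Benjamini-Hochberg over the whole table (threshold 0.05). Each SE is the size of the difference over the root of its F statistic. The log2 CPM values used a prior count of 2. The alternatives were DESeq2 1.42.0, RLE size factors, no filter, the compared libraries only, a replicate block, leaving out each library, and the 9 libraries without headers S37, S38 and S39; DESeq2 on those 9, and 6 of the 30 single differences put through the alternatives, were added after the data were seen. Scripts were tested on simulated counts. Labels do not say that replicates are separate mice, so p-values measure the spread between libraries. The members and lists were chosen with earlier results of these data known. Genes named were 12 fixed by role and, per comparison, the 2 highest, the 2 lowest and the 3 with the smallest p; others were added to complete a role, or because their groups did not overlap, after their values were seen. Promoters are from RefSeq on GRCm38.p6, the assembly of mm10, and gene positions from GENCODE M21.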

Additional observations from a re-analysis of the deposited data

How the results depend on the processing

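EdgeR called 0 genes and 0 members in every comparison under RLE size factors, without a filter, in the compared libraries only, without the 3 libraries, under the replicate block and without any single library. DESeq2 called 72 genes and 1 member in the dark zone treatment comparison, 216 and 1 in the light zone, 16 genes for the difference between zones, 113 genes for the control zones and 1 gene for the treated zones. Without the 3 libraries it called 217 genes and 1 member, 432 genes, 230 genes, 116 genes and 1 member, and 365 genes and 3 members, in the same order. Members whose groups did not overlap numbered 27, 13 and 34 without the 3 libraries for dark zone treatment, light zone treatment and treated zones, against 15, 7 and 3; of all genes 50.6%, 22.7% and 63.7% then did not overlap, as smaller groups overlap less often by construction. Leaving out single libraries gave 15 to 26 for dark zone treatment (26 without dark zone treated replicate 3), 7 to 13 for light zone treatment (13 without light zone treated replicate 2), 6 to 13 for control zones (13 without light zone control replicate 1) and 2 to 19 for treated zones (19 without light zone treated replicate 2), where 23.7% to 56.9%, 11.1% to 25.7%, 10% to 20.7% and 5.84% to 36.9% of all genes did not overlap. The median of the members stayed above 0 in the 4 two-group comparisons under every alternative, at 0.48 to 1.01 without single libraries for dark zone treatment (1.01 without dark zone control replicate 3), 0.07 to 0.68 for light zone treatment, 0.29 to 0.50 for control zones and 0.02 to 0.50 for treated zones. Over all genes the medians with 12 libraries were 0.06, 0.10, 0.00 and 0.05 in that order. A median just above 0 therefore does not set the members apart from all genes. Alternatives were run for 30 log2 differences of single members. Of these, those of Polr1a, Pes1 and Bop1 in the light zone treatment comparison (2.22, 1.34 and 2.16) reversed, to -1.19, -0.74 and -3.51 without light zone treated replicate 2, to -1.19, -0.73 and -3.5 without the 3 libraries, and to -1.18, -0.72 and -3.5 by DESeq2 without them. Without single libraries they ranged from -1.19 to 4.22, -0.74 to 1.89 and -3.51 to 2.73. The cause was not tested. The other values of these 30 kept sign and call in 554 cases, and in 7, all by DESeq2, kept the sign and passed the threshold. Over all 47 members, 11, 15, 0 and 3 changed sign without the 3 libraries in the 2 treatment and 2 zone comparisons. With the replicate block the medians were 0.63, 0.41, 0.45 and 0.26. Of the 6 pairs of a number, 3 had deviations correlated over 0.1 and 2 of 6 dark zone libraries correlated best with their own number, so the numbers are not shown to pair the libraries. Of the member values under 1 CPM, some, as in Bysl and Nop2, lay under the value of 3 counts and others, as in Rrp9, lay well above it. The part of depth in these low values was not tested.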

Other observations

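MYC and its partners were measured in the same libraries. Myc was at 48.5, 19.99 and 13.8 CPM in dark zone cells of control and 15.1, 47.9 and 41.5 in those of treated mice, and 75.6, 21.8 and 44.5 in light zone cells of control and 42.1, 72.9 and 26 in those of treated mice (replicates 1, 2 and 3), and the groups overlapped. Max, the partner that MYC needs to bind DNA, was at 43.5, 37.7 and 52.3 CPM in dark zone cells of control and 25.1, 31.3 and 65.6 in those of treated mice, and 88.2, 54.2 and 62.9 in light zone cells of control and 20, 26.9 and 52.8 in those of treated mice (replicates 1, 2 and 3). In the light zone all treated libraries of Max lay below all controls, replicate 3 by little, with an unadjusted p of 0.0663 by edgeR. Of all genes 5.49% were wholly lower in that comparison. Of 10 measured genes of the MYC network, edgeR called 0 in any comparison and DESeq2 1, lower, between treated zones with 9 libraries. In treated dark zone libraries 7 were higher (median 0.40), and 6 with 9 libraries (0.57). Mxd1, which encodes a repressor that competes for MAX, was at 3.03 to 5.44 CPM in the 3 libraries that stood apart and 0 to 0.681 in the other 9. Of all tested genes 13.7% lay wholly above in those 3 libraries. Myc, Max, Mxd3, Mxd4, Mnt, Mxi1, Mga and Mlx overlapped, so Mxd1 is not typical of the network.

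The RNA exosome, which trims the ends of ribosomal RNA precursors, had higher values in light than in dark zone libraries in 10 of 12 measured genes, both in control (median 0.39) and in treated libraries (0.36), where all-gene medians were 0.00 and 0.05. With 9 libraries 10 and 9 were higher (medians 0.42 and 0.54). EdgeR called 0 of the 12 in each, with 1 higher at an unadjusted p under 0.05 in each (1.90% and 1.46% of all genes). DESeq2 called 0 with 12 libraries and, with 9, 2 higher between control and 1 between treated zones. Treatment medians of the exosome were -0.27 in the dark and -0.13 in the light zone, and -0.24 and -0.02 with 9 libraries.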
